A study of Solanum lycopersicum var. cerasiforme with 6 samples.

Results

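The tomato genes of the APETALA1/FRUITFULL (AP1/FUL) clade of MADS-box transcription factors were followed in RNA sequencing libraries of young inflorescences. The clade was represented by 5 genes out of 34081 rows in the count tables, chosen by locus identifier: MACROCALYX (Solyc05g056620), FUL1 (Solyc06g069430), FUL2 (Solyc03g114830), MBP10 (Solyc02g065730) and MBP20 (Solyc02g089210). By their identifiers they lie on chromosomes 5, 6, 3, 2 and 2. Each had a single row, and all 5 passed the filter on low counts. The plants were F3 progenies of Solanum lycopersicum var. cerasiforme that segregated for fw2.3, a fruit weight quantitative trait locus, and they carried either the derived allele (fw2.3-D) or the wild-type allele (fw2.3-WT). Each genotype was sampled as 3 pools, with RNA of 2 plants combined in equal amounts in each pool. Inflorescences were taken before any floral bud reached 2 mm, from unpruned plants placed at random in a greenhouse. The pools are sets of different plants of a segregating progeny, so the spread between them includes plant differences averaged over 2 plants. Other loci that differed between the F3 plants are not given by the labels.

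MADS-box proteins of this clade bind DNA in complexes with other MADS-box proteins, in particular those of the SEPALLATA clade. In Arabidopsis, AP1 and FUL promote the change from inflorescence to floral meristem, and AP1 also helps to specify sepals. In tomato, MACROCALYX is the AP1-type gene, known for its roles in sepal size, inflorescence determinacy and the pedicel abscission zone. FUL1 and FUL2 are FUL-type genes best known from fruit, where they act in ripening, and FUL2 also acts with MBP20 in flowering and inflorescence architecture. MBP10 is the closest relative of MBP20, and less is known of its function.

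Total counts ran from 25094534 to 28504360 in the fw2.3-D pools and from 22303511 to 24570493 in the fw2.3-WT pools. A gene with no count in a pool could still hold 0.105 to 0.135 CPM (reads of a gene relative to the library total), taking 3 counts as the limit, which covers counting error only. Loci other than the 5 genes were taken by locus number from published assignments as remembered, because the tables used here do not pair identifiers with names, and they are given as groups. As a check of the tissue, 6 floral organ identity loci were all detected, with summed levels of 456 to 591 RPKM (reads scaled to gene length and library total) in fw2.3-D pools and 474 to 522 RPKM in fw2.3-WT. Of 7 loci of ripening fruit and mature pollen, 3 had no count in any pool, and the 7 summed to 13.9 to 18.2 RPKM in fw2.3-D pools and 13.3 to 18.2 RPKM in fw2.3-WT, mostly from 1 locus. In such bulk tissue, fewer cells that express a gene and less RNA per cell cannot be told apart.

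MACROCALYX was the most abundant transcript of the clade in every pool, and MBP10 the least abundant. Over the 6 pools MACROCALYX averaged 99.7 RPKM, FUL1 27.1, MBP20 23.7, FUL2 17.9 and MBP10 5.79 RPKM. For scale, the median of all tested rows was 13.1 RPKM, and 94.1% of them stood at or below MACROCALYX. The same share was 73.3% for FUL1, 69.3% for MBP20, 60.3% for FUL2 and 28.2% for MBP10. Within a pool, the MACROCALYX level per length was 2.81 to 4.46 times that of FUL1 and 12.9 to 21.2 times that of MBP10, so its place at the top did not depend on the pool. The middle of the order was less fixed. FUL1 exceeded MBP20 in 4 of 6 pools, with ratios from 0.903 to 1.40, so over all pools these neighbours in the order did not differ beyond their spread. The ratio of FUL1 to MBP20 was 1.18, 0.903 and 0.994 in fw2.3-D, against 1.32, 1.40 and 1.10 in fw2.3-WT. FUL1 thus stood above MBP20 in each fw2.3-WT pool and in 1 of 3 fw2.3-D pools, and the ranges of the genotypes overlapped. MBP20 exceeded FUL2 in 5 of 6 pools, with ratios from 0.974 to 1.50. This order depends on the gene lengths implied by the RPKM. By mean share of the clade's counts, not scaled to length, FUL2 stood above MBP20. The shares were 11.5% against 11.0% in fw2.3-D and 11.5% against 9.56% in fw2.3-WT. FUL1 exceeded FUL2 in 6 of 6 pools, by 1.26 to 1.81 times. FUL2 stood above MBP10 in 6 of 6 pools, by 2.41 to 3.79 times.

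**Figure D1:**
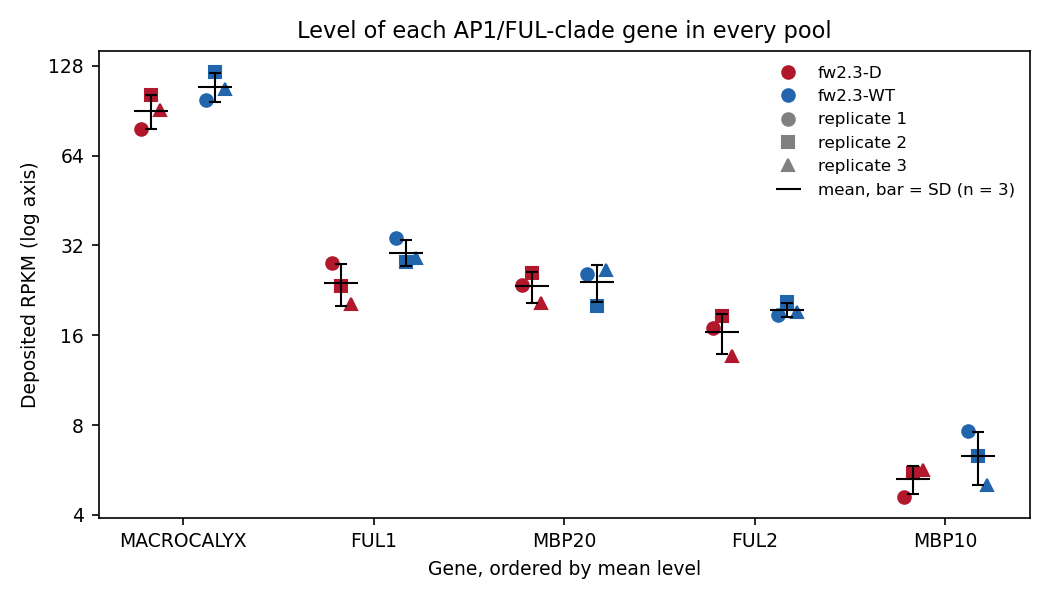
Deposited RPKM on a log axis for the 5 AP1/FUL-clade genes, each symbol a pool (red, fw2.3-D; blue, fw2.3-WT) with the mean and SD of 3 pools per genotype. MACROCALYX lies between 78.4 and 122 RPKM, the genes FUL1, MBP20 and FUL2 between 13.6 and 33.8 RPKM, and MBP10 between 4.61 and 7.62 RPKM.

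The comparison of the genotypes asks whether transcripts of these genes differ with the fw2.3 allele. None of the 5 genes passed the test over all rows. By edgeR's quasi-likelihood test, 0 of 5 passed a Benjamini-Hochberg adjusted p of 0.05, and 0 had an unadjusted p under 0.05. Of all 20942 rows tested, 5 (0.0239%) passed that threshold, termed called below, and 3.56% had an unadjusted p under 0.05. DESeq2 also gave 0 of 5 called and 0 at an unadjusted p under 0.05, where its shares of all rows were 0.205% and 3.22%. The fitted fold changes of the 5 genes, fw2.3-D over fw2.3-WT, were all below 1, as were those of 49.8% of all rows tested. Their median log2 fold change was -0.25, where that of all rows was 0.00.

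MACROCALYX, the AP1-type gene, had 78.4, 102 and 90.8 RPKM in the 3 fw2.3-D pools, against 98.5, 122 and 107 RPKM in the fw2.3-WT pools. The genotypes overlapped, since fw2.3-D replicate 2 lay above fw2.3-WT replicate 1. The underlying counts were 2763, 3953 and 3103 in fw2.3-D pools and 3295, 3705 and 3475 in fw2.3-WT. With counts scaled by TMM factors, MACROCALYX averaged 124 ± 13.5 CPM in fw2.3-D pools and 147 ± 15.9 CPM in fw2.3-WT (SD, n = 3 each). This was a log2 fold change of -0.25 (SE 0.131, 95% interval -0.54 to 0.04, edgeR adjusted p = 0.948). In linear terms the interval runs from 0.686-fold to 1.03-fold, so the test does not show that the genotypes were alike. Without fw2.3-WT replicate 2 the log2 fold change was -0.16. The count of MACROCALYX is high enough that counting error is small, 1.75% of the level in fw2.3-D pools and 1.69% in fw2.3-WT, while the coefficient of variation between pools was 10.9% in fw2.3-D against 10.8% in fw2.3-WT. The limit for this gene was thus the spread between pools.

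FUL1, a FUL-type gene of the ripening fruit, had 27.9, 23.4 and 20.3 RPKM in fw2.3-D, against 33.8, 28.1 and 28.9 RPKM in fw2.3-WT. The lowest fw2.3-WT pool lay just above the highest fw2.3-D pool in RPKM. Of all tested rows with RPKM, 4.89% had all fw2.3-D pools below all fw2.3-WT pools. With TMM scaling the separation was lost, because fw2.3-D replicate 1 then stood at 33.6 CPM, above fw2.3-WT replicates 2 and 3 at 32.6 and 32.5 CPM. FUL1 averaged 28.0 ± 5.10 CPM in fw2.3-D pools and 35.0 ± 4.23 CPM in fw2.3-WT (SD, n = 3 each). Its log2 fold change of -0.32 (SE 0.156, 95% interval -0.67 to 0.03, edgeR adjusted p = 0.948) was the most negative of the 5 genes and had the smallest unadjusted p among them, 0.0678 by edgeR. With single pools left out the log2 fold change ran from -0.47, without fw2.3-D replicate 1, to -0.21, without fw2.3-D replicate 3.

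FUL2, which acts both in fruit and in the inflorescence, had 16.9, 18.6 and 13.6 RPKM in fw2.3-D, against 18.7, 20.6 and 19.1 RPKM in fw2.3-WT. Every fw2.3-D pool lay below every fw2.3-WT pool in RPKM, and after TMM scaling they were still separate, though by little. The CPM values were 24.5, 25.8 and 19.0 in fw2.3-D, against 26.6, 28.8 and 25.8 in fw2.3-WT. The highest fw2.3-D pool and the lowest fw2.3-WT pool were thus nearly level. All fw2.3-D pools lay below all fw2.3-WT pools in 4.34% of the rows tested by CPM. FUL2 averaged 23.1 ± 3.61 CPM in fw2.3-D pools and 27.1 ± 1.55 CPM in fw2.3-WT (SD, n = 3 each), a log2 fold change of -0.23 (SE 0.143, 95% interval -0.55 to 0.09, edgeR adjusted p = 0.948). Without fw2.3-D replicate 3 the log2 fold change was -0.11.

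MBP20, the partner of FUL2 in inflorescence development, was the gene with the smallest fitted difference. Its RPKM were 23.6, 25.9 and 20.5 in fw2.3-D, against 25.6, 20.1 and 26.4 in fw2.3-WT. The ranges covered each other almost completely. MBP20 averaged 22.1 ± 2.64 CPM in fw2.3-D pools and 22.5 ± 3.13 CPM in fw2.3-WT (SD, n = 3 each), a log2 fold change of -0.02 (SE 0.151, 95% interval -0.36 to 0.32, edgeR adjusted p = 0.993). In linear terms the interval runs from 0.780-fold to 1.25-fold. The sign changed with some single pools left out. The log2 fold change was 0.07 when fw2.3-D replicate 3 was left out, 0.04 for fw2.3-WT replicate 1 and 0.03 for fw2.3-WT replicate 3.

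MBP10, the relative of MBP20 on the same chromosome, was the gene with the fewest reads. It had 84, 111 and 100 counts in fw2.3-D, against 132, 99 and 85 counts in fw2.3-WT. Per length these were 4.61, 5.52 and 5.65 RPKM in fw2.3-D pools and 7.62, 6.30 and 5.04 RPKM in fw2.3-WT. The genotypes overlapped, and the value of fw2.3-WT replicate 1 stood highest. The 84 counts of fw2.3-D replicate 1 carry an exact Poisson 95% interval of 67.0 to 104 counts, and the 132 counts of fw2.3-WT replicate 1 one of 110 to 157, for counting error only. Counting error was 10.1% of the level in fw2.3-D, where the pools varied by 8.64%, so their spread there was no larger than counting alone gives. In fw2.3-WT the pools varied by 22.8% with a counting error of 9.74%. MBP10 averaged 3.73 ± 0.323 CPM in fw2.3-D pools and 4.44 ± 1.01 CPM in fw2.3-WT (SD, n = 3 each), a log2 fold change of -0.25 (SE 0.249, 95% interval -0.80 to 0.31, edgeR adjusted p = 0.948). This interval was the widest of the clade. The log2 fold change was -0.07 without fw2.3-WT replicate 1 and -0.41 without fw2.3-WT replicate 3.

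**Figure D2:**
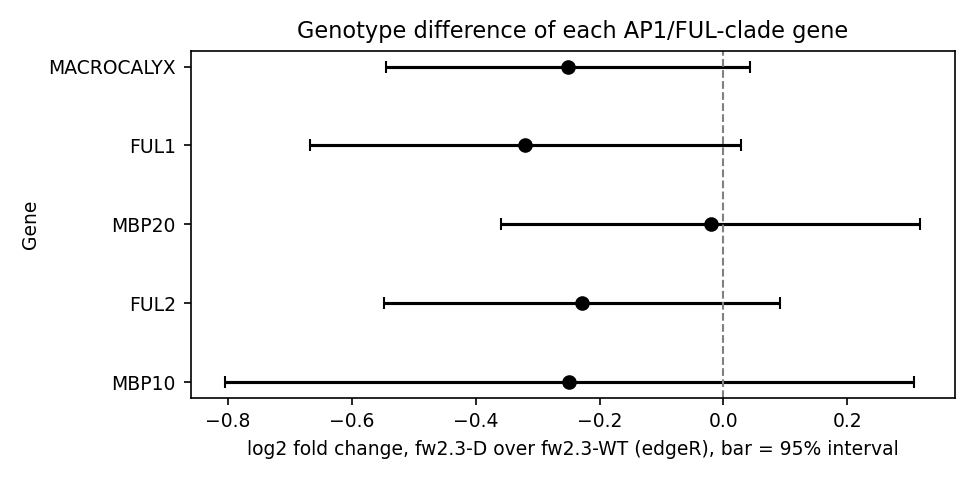
Log2 fold change of each AP1/FUL-clade gene, fw2.3-D over fw2.3-WT, from edgeR, with bars for the 95% interval and a dashed line at 0. All 5 intervals include 0, from the narrowest for MACROCALYX (-0.54 to 0.04) to the widest for MBP10 (-0.80 to 0.31).

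**Figure D3:**
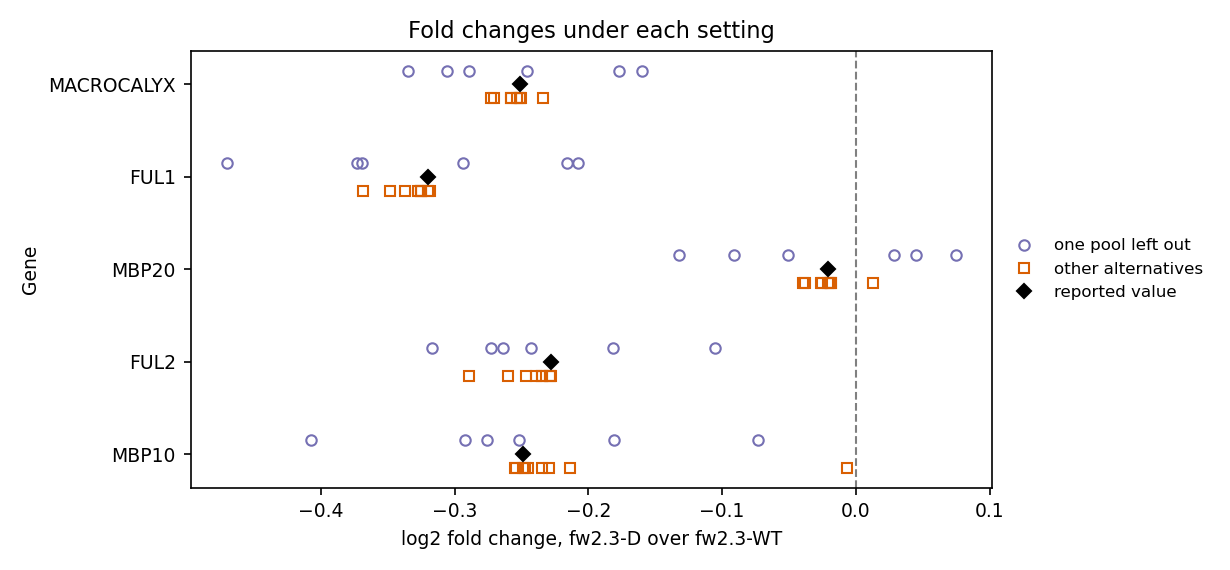
Log2 fold change of each gene, fw2.3-D over fw2.3-WT, as reported (diamonds), with 1 pool left out (circles) and under the other alternatives (squares). MACROCALYX, FUL1, FUL2 and MBP10 stay below 0 in each of 15 alternatives, while MBP20 lies below 0 in 11 of 15, and leaving out a pool moved the values of MACROCALYX, FUL1, FUL2 and MBP20 more than any other alternative did.

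Summed over the 5 genes, clade transcripts came to 151, 175 and 151 RPKM in fw2.3-D, against 184, 197 and 186 RPKM in fw2.3-WT. The sums did not overlap, and with TMM library sizes they were 157, 174 and 150 in fw2.3-D pools and 187, 196 and 180 in fw2.3-WT. Among single rows tested, all fw2.3-D pools lay below all fw2.3-WT pools in 4.89% by RPKM and in 4.34% by CPM. MACROCALYX was the largest part of the sum, and its own pools overlapped between the genotypes. The other 4 genes together came to 73.0, 73.4 and 60.1 RPKM in fw2.3-D, against 85.6, 75.2 and 79.4 RPKM in fw2.3-WT. These did not overlap in deposited RPKM. With TMM library sizes that separation was lost, because fw2.3-D replicate 1 then stood slightly above fw2.3-WT replicate 2. The sum is given as a description with no test, since the members were chosen with earlier results of these data known. The share of each gene in this sum overlapped between the genotypes. MACROCALYX took 56.7 ± 4.37% of the summed RPKM in fw2.3-D pools and 57.5 ± 4.20% in fw2.3-WT (SD, n = 3 each). FUL1 took 15.1 ± 2.89% in fw2.3-D pools and 16.1 ± 2.08% in fw2.3-WT, and FUL2 took 10.3 ± 1.09% in fw2.3-D against 10.3 ± 0.172% in fw2.3-WT. MBP20 made up 14.7 ± 1.03% in fw2.3-D pools and 12.8 ± 2.23% in fw2.3-WT. MBP10 was the smallest part, at 3.31 ± 0.379% in fw2.3-D pools and 3.35 ± 0.728% in fw2.3-WT.

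**Figure D4:**
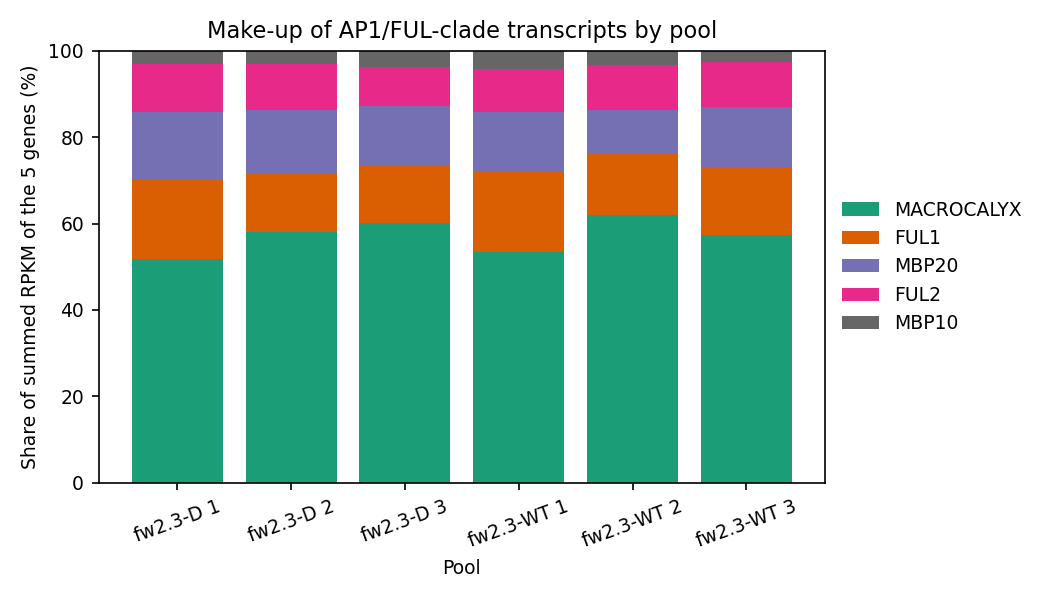
Share of the summed RPKM of the 5 genes taken by each gene, in percent, for the 3 fw2.3-D pools and the 3 fw2.3-WT pools. MACROCALYX takes 51.8% to 60.2% in fw2.3-D pools and 53.5% to 61.9% in fw2.3-WT, and its share is smallest in replicate 1 of both genotypes.

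The ratio of MACROCALYX to FUL1 averaged 3.88 ± 0.923 in fw2.3-D pools and 3.65 ± 0.711 in fw2.3-WT (SD, n = 3 each), so the means differed by less than the spread between pools. By pool, the ratio of their RPKM was 2.81, 4.35 and 4.46 in fw2.3-D pools and 2.92, 4.34 and 3.68 in fw2.3-WT, so it was lowest in replicate 1 of both genotypes. MACROCALYX was lowest, and FUL1 highest, in replicate 1 within each genotype. These first pools were also the most alike of all 15 pairs of pools, with a chi-square per row of 13.5. The least alike pair, at 52.9, also shared a number: fw2.3-D replicate 2 and fw2.3-WT replicate 2. The labels do not say what the replicate numbers stand for, and the part of the first pools in this balance was not tested. When a term for the first pools was fitted, FUL1 had an unadjusted edgeR p of 0.0171 and MACROCALYX one of 0.0501, and both had an adjusted p of 0.836. With that term, 1135 of all rows had an unadjusted edgeR p under 0.05, against 746 without it. The ratio of FUL1 to FUL2 was also highest in replicate 1 of both genotypes, at 1.65, 1.26 and 1.49 in fw2.3-D pools and 1.81, 1.36 and 1.52 in fw2.3-WT.

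For 3 of the 5 genes, the RefSeq gene table of the assembly SLM_r2.1 names a MADS-box neighbour. There a RIN-MACROCALYX fusion entry adjoins MACROCALYX, MADS1 adjoins FUL2, and TM29 adjoins MBP20. RIN, MADS1 and TM29 belong to the SEPALLATA clade, whose proteins form complexes with AP1/FUL proteins. The table does not pair these names with the identifiers of the count tables, so an adjoining row of each of these 3 genes is given by identifier. Solyc05g012020, the row next to MACROCALYX, averaged 0.788 ± 0.459 RPKM in fw2.3-D pools and 0.667 ± 0.281 RPKM in fw2.3-WT (SD, n = 3 each). MACROCALYX stood 78.9 to 287 times above it per length, depending on the pool. At FUL2 the order was the other way. Solyc03g114840 averaged 49.8 ± 2.57 RPKM in fw2.3-D pools and 48.8 ± 7.02 RPKM in fw2.3-WT, which was 2.00 to 3.70 times the FUL2 level of the same pool. Solyc02g089200, next to MBP20, averaged 131 ± 23.4 RPKM in fw2.3-D pools and 134 ± 12.8 RPKM in fw2.3-WT, or 4.59 to 6.72 times MBP20. The log2 fold changes of these adjoining rows were 0.26, 0.05 and -0.01, and 0 of the 3 were called by edgeR (adjusted p = 0.963, 0.968 and 0.999). They had 0 unadjusted p under 0.05.

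**Figure D5:**
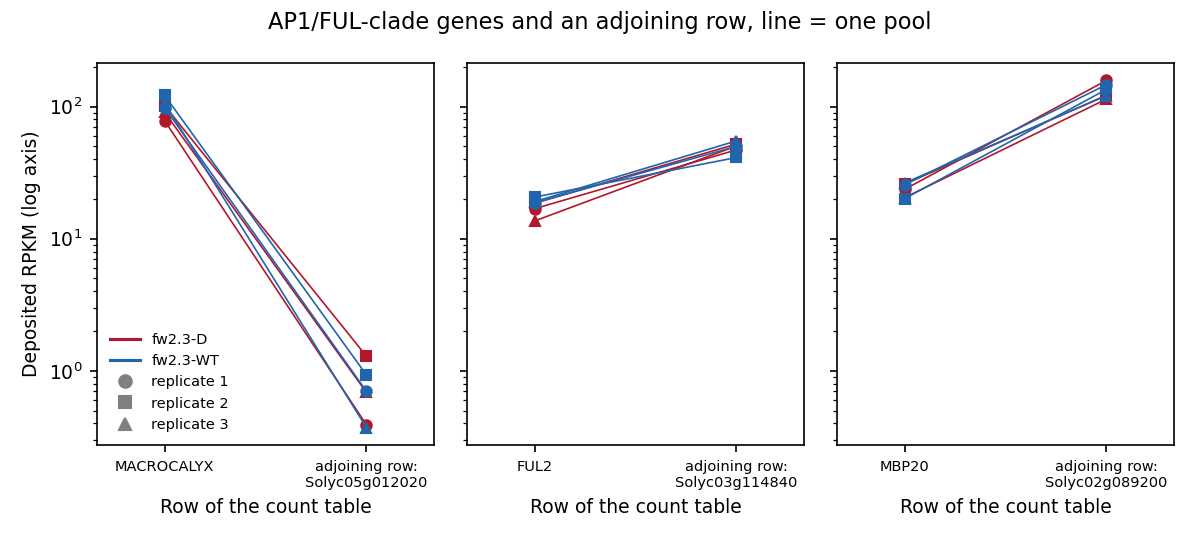
Deposited RPKM on a log axis of MACROCALYX, FUL2 and MBP20 and of an adjoining row of the count table, with a line for each pool (red, fw2.3-D; blue, fw2.3-WT). The row beside MACROCALYX lies between 0.372 and 1.29 RPKM, far below it, whereas the rows beside FUL2 and MBP20 lie above them, at 41.2 to 55.1 and at 114 to 158 RPKM.

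Since strand was not kept in these libraries, reads of a gene and of an overlapping neighbour cannot be separated. In the RefSeq table MACROCALYX overlaps the RIN-MACROCALYX entry and FUL1 overlaps the gene listed before it, while the entries of FUL2, MBP10 and MBP20 overlap neither neighbour. The rows beside FUL1 had log2 fold changes of -0.37 (edgeR adjusted p = 0.948) before it and -0.31 (edgeR adjusted p = 0.948) after it, close to its own -0.32. The row before FUL1 had 108, 88 and 105 counts in fw2.3-D pools and 142, 117 and 95 counts in fw2.3-WT, fewer than FUL1 by several times. The row after FUL1 was highest in fw2.3-WT replicate 2, with 4290 counts, where FUL1 itself was highest in fw2.3-WT replicate 1. Whether reads of these rows enter the FUL1 count was not tested.

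Among other MADS-box loci, likewise, edgeR called none. Of 18 such loci, 17 were tested, 13 with log2 fold changes above 0 and 4 below, from -0.08 to 0.96 with a median of 0.04, and edgeR called 0 of them. In 0 of the 17 were the pools of the genotypes separate, and 0 had an unadjusted p under 0.05. Of all 20942 rows tested, 909 had separate pools with fw2.3-D lower and 1079 with fw2.3-D higher. An unadjusted edgeR p under 0.05 was found for 3.56% of them. Among 9 loci of flowering and inflorescence regulators, which act upstream of or beside the AP1/FUL genes, 7 were tested. Of these, 6 had log2 fold changes below 0 and 1 above, from -0.23 to 0.15 with a median of -0.06, and edgeR called 0 (0 at an unadjusted p under 0.05). In 1 of the 7, all fw2.3-D pools lay below all fw2.3-WT pools in CPM, as in 4.34% of all rows tested. The 6 floral organ identity loci, which are among the 18, ran from -0.06 to 0.16 with a median of 0.06, and edgeR called 0. The 3 tested loci of ripening fruit and pollen ran from -0.05 to 1.23 with a median of 0.09, and edgeR called 0 of them. The median over all tested rows was 0.00, with 49.8% of them below 0 and 0.0239% called by edgeR.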

How the data were processed

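RNA of young inflorescences was sequenced in 6 pools. The authors deposited raw read counts per gene, one table per pool, and a table of RPKM. Cutadapt, STAR and edgeR are named, without roles or versions, in the submitters' processing notes, and the RPKM table names the tomato build SL4.0. How reads were counted, and what was done with reads of several matches, is not given in the sources used here. Gene lengths implied by the deposited RPKM are 1362 bases for MACROCALYX, 1162 for FUL1, 1401 for FUL2, 705 for MBP10 and 941 for MBP20.

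Counts were tested with edgeR 4.0.16 under R 4.3.3 (quasi-likelihood, two-sided, TMM factors, filterByExpr with a minimum count of 10, genotype as the single term), over all 20942 rows that passed, with Benjamini-Hochberg adjustment. The standard error is the absolute log2 fold change over the square root of F, and 95% intervals use the fit's degrees of freedom. A gene was called at an adjusted p under 0.05. With 3 pools against 3, an exact permutation test of a single gene cannot go below p = 0.1, so none was used. The fit was tested on simulated data. Levels between genes are the deposited RPKM. No pair of pools agreed within sampling noise.

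The names of the 5 genes were given together with their locus identifiers when the genes were chosen. Other loci were taken by locus number from published assignments as remembered. RefSeq's table (assembly SLM_r2.1) holds 0 of 34075 identifiers, but lists all 5 symbols on the chromosomes that the identifiers name. The genes and lists were chosen with earlier results of these data known. The genes described are the 5 members, rows next to them in the order of the count table (which places Solyc05g056620 beside Solyc05g012020), and the row most alike to each. Alternatives were DESeq2 1.42.0, RLE factors, other filters, the replicate block, a term for the first pools or their removal, each pool left out, limma 3.58.1 on log2(RPKM + 1) and log2(RPKM + 0.1), RPKM with TMM library sizes, and shares of counts.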

Additional observations from a re-analysis of the deposited data

How the results depend on the processing

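None of the 5 genes was called under any of the 15 alternatives. MACROCALYX ran from -0.33 to -0.16, FUL1 from -0.47 to -0.21, FUL2 from -0.32 to -0.11 and MBP10 from -0.41 to -0.01 on the log2 scale, all below 0, and the value of MBP10 nearest to 0 came without the first pools. MBP20 changed sign, to 0.013 without the first pools, and its values with single pools left out lay between -0.13 and 0.075. FUL1 had an unadjusted p under 0.05 in 6 of 15 alternatives and MACROCALYX in 1, and the lowest adjusted p of any gene was 0.692. The alternatives reuse the same pools, so these counts are not separate evidence. Between settings, from 426 to 1472 of all rows had an unadjusted p under 0.05. The number of rows called, 5, rose to 48 under DESeq2, 13 when no filter was used, 13 when the first pools had a term of their own and 21 when they were removed. It was 0 with limma at either pseudocount (774 and 746 at an unadjusted p under 0.05), and lay between 0 and 18 when single pools were removed. The cause was not tested. With the replicate block 10 rows were called and 0 of the 5 genes. Between pools of one number, deviations from the genotype mean correlated at 0.346, -0.072 and 0.056 for replicates 1, 2 and 3. The deviations of 3 pools from their own mean depend on one another. These values therefore cannot decide whether the numbers pair the pools. Of the levels and clade shares, 72 values moved by less than the spread between pools and 8 by more. All 8 are shares of counts in place of shares of RPKM, which are not per length. Counting error was largest for MBP10, which had 84 to 132 counts: 10.1% of the level in fw2.3-D, where the pools varied by 8.64%, and 9.74% in fw2.3-WT, where they varied by 22.8%.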

Other observations

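For each gene, the tested row with the most similar course over the 6 pools was sought among 19388 other rows with a mean of at least 1 CPM, by Pearson's r of log2 CPM. The best of so many rows over 6 pools is high by selection, so the values are a description. The row most like MACROCALYX was Solyc06g150130 (r = 0.992), at 43.6 to 64.0 RPKM. FUL1 was matched by Solyc04g080040 (r = 0.992), a weakly expressed row at 1.02 to 1.97 RPKM. FUL2 was matched by Solyc10g055720 (r = 0.994), MBP10 by Solyc06g065100 (r = 0.981) and MBP20 by Solyc02g070210 (r = 0.997). No gene of the clade was the best match of another. For MBP20, 250 rows had r above 0.9, for MACROCALYX 217, for FUL1 134, for FUL2 112 and for MBP10, the gene with the fewest reads, 32.

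The biological coefficient of variation that edgeR fitted was 13.2% for MACROCALYX, 14.7% for FUL1, 13.8% for FUL2, 14.4% for MBP20 and 21.6% for MBP10, where the median of all tested rows was 15.9%.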
